A study of Mus musculus with 30 samples.

Results

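The cytosines examined here are those of the mouse mitochondrial genome that were read in sperm by reduced representation bisulfite sequencing (RRBS). RRBS reads CpG-rich fragments of cut DNA after bisulfite, which converts unmethylated cytosine so that it reads as thymine and leaves methylated cytosine unchanged. Every row assigned to the mitochondrial chromosome in the 30 libraries was taken, with the strands kept apart, which gave 90 cytosines of the 3201002 cytosines read in any library. Of these, 38 lay on the light strand and 52 on the heavy strand. The light strand is the reference (+) strand, which is poor in guanine, and the heavy strand is its complement.

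The sperm came from the cauda epididymis, where mature sperm are stored, of 30 male C57BL/6J mice, each with a library of its own. The 15 cadmium mice drank reverse-osmosis (RO) water that held cadmium at 0.9 ppm, from cadmium chloride, at an average dose of 0.68 mg per kg of body weight. The 15 vehicle mice drank the same kind of water without cadmium. All were 7 weeks old at the start, were sampled 9 weeks into treatment, were housed singly and ate a diet with 10% of its energy from fat. Sperm were rinsed from the tissue, pelleted and taken up in a wash medium, and the labels' protocol names no lysis of other cells.

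The mitochondrial genome is a small circular DNA that encodes core subunits of the respiratory chain, the ribosomal RNAs of the mitochondrion and its own transfer RNAs. Many copies are present in a body cell, whereas sperm keep few, packed in the midpiece, and the mother passes on nearly all of the mitochondrial DNA of the offspring. Whether this DNA carries CpG methylation is disputed, because incomplete bisulfite conversion leaves the same signal as low methylation. Each library held a spiked-in unmethylated control sequence, whose apparent methylation gives the level that remains where conversion is incomplete. The mitochondrial values are therefore set against that control in the same library.

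Coverage, the number of reads over cytosines, summed to between 53550755 and 94020528 per library over all mouse chromosomes and to between 7700 and 94296 over the mitochondrial cytosines. The methylated control sequence read 97.9% to 98.7% methylated. Intervals based on reads cover counting error only, because PCR copies are not separate molecules and neighbouring cytosines are covered by the same reads.

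The mitochondrial rows were few and the same ones recurred. Of the 90 cytosines, 19 were read in all 30 libraries, 6 on the light and 13 on the heavy strand, and these same 19 reached 10 reads in at least 10 cadmium and 10 vehicle mice. The other 71 were each read in at most 9 libraries, and 44 of them in 1 library. Those 71 held 1220 reads in all, of which 0 were methylated, and which allow a level of up to 0.246%. Single libraries held 19 to 33 mitochondrial cytosines.

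Only 10 of the 37 annotated mitochondrial genes held any of the cytosines, and 4 of them held cytosines read in every library. By gene group, cytosines fell in 5 of 7 genes of complex I (NADH dehydrogenase), in mt-Cytb as the 1 gene of complex III, in 1 of 3 genes of complex IV (cytochrome c oxidase), in 0 of 2 genes of complex V (ATP synthase), in 2 of 2 ribosomal RNA genes and in 1 of 22 transfer RNA genes. In no gene were 5 cytosines. The longest stretch without a row ran 4779 bp between positions 6390 and 11169, and covers mt-Co2, mt-Co3, mt-Atp6, mt-Atp8, mt-Nd3 and mt-Nd4l.

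Coverage was concentrated further still. mt-Co1 (COX1 in the annotation, positions 5328 to 6872 of GRCm38.p6), the catalytic subunit of complex IV, held 60.3% of all mitochondrial reads. mt-Nd1 (ND1, positions 2751 to 3707), a membrane subunit of complex I, held 38.0%. mt-Rnr2 (positions 1094 to 2675), the large ribosomal RNA, held 1.44%, and mt-Rnr1 (positions 70 to 1024), the small one, held 0.244%. The 11 deepest cytosines, all in mt-Co1 and mt-Nd1, had 80106 to 160931 reads each and held 98.0% of the reads. The other 8 of the 19 had 2503 to 3727 reads each. Statements on mitochondrial methylation below thus rest mainly on short stretches of 2 protein-coding genes.

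Gm10925 on chromosome 1 (24613971 to 24614651 of GRCm38.p6), a nuclear copy of mt-Atp6, had 0 rows within 5000 bp in any library. mt-Atp6 itself also held 0 of the mitochondrial cytosines. The absence of rows therefore cannot show whether reads of nuclear copies were counted as mitochondrial, or the reverse. Other nuclear copies of mitochondrial DNA were not examined.

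The share of all coverage that fell on mitochondrial cytosines did not differ detectably between cadmium and vehicle mice. It averaged 0.0586% ± 0.0252 in cadmium mice and 0.0585% ± 0.0342 in vehicle mice (SD, n = 15 each). The lowest, median and highest values were 0.0127%, 0.0673% and 0.0923% in cadmium mice, against 0.0128%, 0.0449% and 0.119% in vehicle mice. The groups overlapped, with 1 cadmium mouse below every vehicle mouse and 3 vehicle mice above every cadmium mouse. The difference was 0.000178 percentage points, with a 95% interval from -0.0224 to 0.0228 (two-sided permutation test with 100000 resamples, p = 0.988). In such bulk DNA, a change in mitochondrial genomes per sperm and a change in the amount of DNA from other cells cannot be told apart.

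The share did move with a marker of DNA other than sperm DNA. Maternal germline differentially methylated regions (DMRs) are imprinted sites that sperm leave unmethylated and that body cells carry methylated on the chromosome from the mother. Their mean over 14 gene windows was 22.2% ± 5.21 in cadmium mice and 19.9% ± 7.89 in vehicle mice (SD, n = 15 each), and ranged from 10.9% to 36.6% over all mice. One window, at Slc38a4, averaged 96.3% and lifts this mean, and over the 13 windows averaging under 30% the level was 16.4% ± 5.56 in cadmium mice and 14.1% ± 8.52 in vehicle mice. For each gene, the window within 1000 bp of the end with the lower mean over all mice was used. Of 16 listed genes, 14 gave a window. The windows were placed by gene ends and not by mapped DMR positions. Grb10 (1.05%) and Inpp5f (4.77%) read lowest of the 14 and pull the means down. Windows of Peg10 and Sgce overlap (15.6% each), as do those of Peg3 and Usp29 (14.2% each). Each of these regions thus enters both means more than once. The H19 region, which sperm carry methylated, averaged 87.3% ± 7.84 in cadmium mice and 86.5% ± 11.9 in vehicle mice.

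Across the 30 mice, the mitochondrial share correlated with the maternal DMR level at Pearson r = 0.783 and Spearman rho = 0.788. Both had an adjusted permutation p of 7e-05 (raw p = 1e-05, the smallest 100000 resamples can give) over the 7 relations computed. Without the 2 mice farthest from the median maternal level, vehicle mice 4 and 13, r was 0.733. Within groups, r was 0.629 in cadmium mice and 0.876 in vehicle mice. The contribution of other cells to the mitochondrial reads was not tested.

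**Figure D1:**
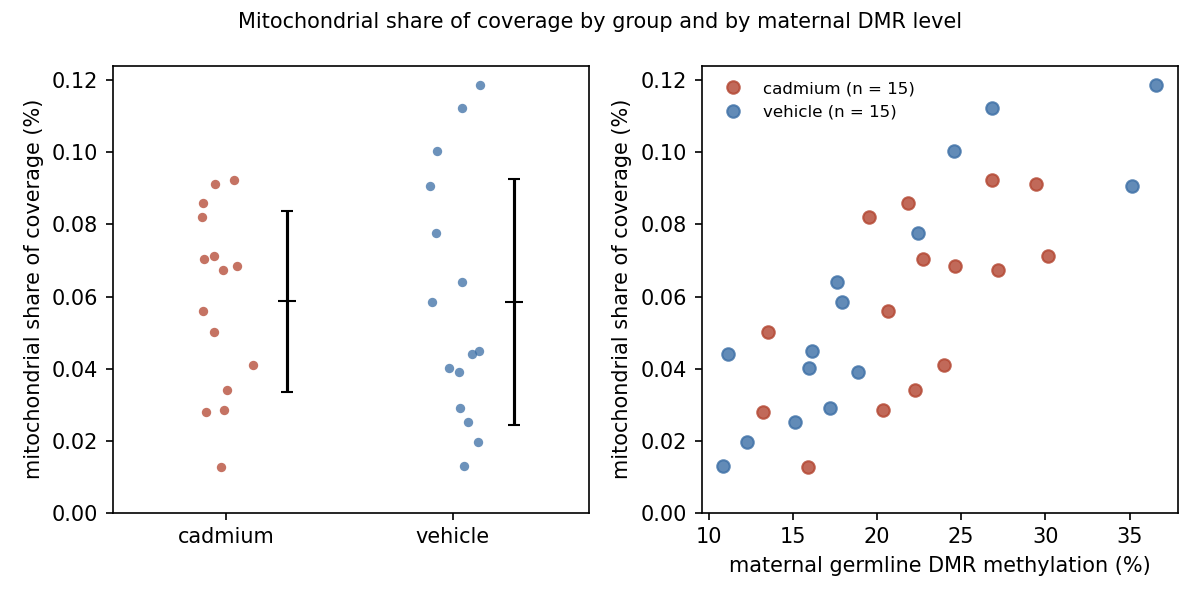
Left, the percentage of each library's coverage that fell on mitochondrial cytosines, by group, with a point per mouse and the mean and SD beside it; the groups overlap, with means of 0.0586% in cadmium mice and 0.0585% in vehicle mice. Right, the same percentage against the mean methylation (%) at maternal germline DMRs, with a point per mouse; the points rise together (r = 0.783, n = 30).

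Mitochondrial methylation was below 1.5% on either strand in every mouse, in DNA whose nuclear chromosome strands read 28.8% to 82.2% methylated on average. On the light strand it averaged 0.613% ± 0.302 in cadmium mice and 0.791% ± 0.286 in vehicle mice (SD, n = 15 each). The lowest, median and highest values were 0.0693%, 0.708% and 1.01% in cadmium mice, against 0.408%, 0.755% and 1.34% in vehicle mice. Of the cadmium mice, 6 lay below the lowest vehicle mouse, and 3 vehicle mice lay above the highest cadmium mouse; the others overlapped. The lowest, in cadmium mouse 5, rested on 2 methylated reads of 2887, with an exact 95% binomial interval from 0.00839% to 0.250%.

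The light strand difference, cadmium minus vehicle, was -0.178 percentage points with a 95% interval from -0.398 to 0.0415. Its permutation p was 0.108, and 0.369 after Benjamini-Hochberg adjustment over the 44 combinations of chromosome and strand. On the heavy strand the level was 0.572% ± 0.210 in cadmium mice and 0.528% ± 0.154 in vehicle mice. The lowest, median and highest values there were 0.260%, 0.591% and 1.11% in cadmium mice, against 0.300%, 0.491% and 0.815% in vehicle mice. The heavy strand difference was 0.0442 points with an interval from -0.0944 to 0.183 (permutation p = 0.527, adjusted p = 0.566). No difference between the group means was detected on either strand. Of the 44 combinations, 0 were called (0%), and 1, a nuclear one, had an unadjusted permutation p under 0.05.

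No relation between the light and heavy strand levels was detected across mice (r = -0.197, adjusted permutation p = 0.999). Cadmium mouse 3 had the highest heavy strand level of all, 1.11%, and a light strand level of 0.311%. Vehicle mouse 15 had the highest light strand level, 1.34%, and a heavy strand level of 0.491%.

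The unmethylated control read 0.349% ± 0.104 in cadmium libraries and 0.397% ± 0.161 in vehicle libraries, from 0.185% to 0.507% in cadmium libraries and from 0.0740% to 0.666% in vehicle libraries. Summed over reads, mitochondrial methylation lay above this level on average. The median over cytosines went the other way. It was 0.208% over the 19 mitochondrial cytosines read in all 30 libraries and 0.274% over the 32 control cytosines. Within libraries, the light strand exceeded the control by 0.329 points (95% interval 0.206 to 0.451, 25 of 30 mice, two-sided sign-flip permutation p = 2e-05). The heavy strand exceeded it by 0.177 points (0.0951 to 0.259, 25 of 30 mice, p = 0.00015). Heavy strand methylation was lower than light strand methylation by 0.152 points in the same libraries (difference -0.152, interval -0.295 to -0.00869, p = 0.0392), and the heavy strand was the higher one in 9 of 30 mice. The control differed between its strands in the same direction, at 0.255% ± 0.164 on its - strand and 0.454% ± 0.195 on its + strand (SD, n = 30). Set against control rows of the same strand only, the heavy strand exceeded the control by 0.295 points (26 of 30 mice, p = 1e-05, the smallest 100000 resamples can give) and the light strand by 0.247 points (21 of 30 mice, p = 0.00073, both sign-flip permutation tests). The order of the strands is then the opposite one, and this difference was not tested. The control + strand level includes position 83, the highest control cytosine, at 1.27% ± 0.998. Strand comparisons without that position were not made. The + and - strands of the control belong to its own sequence, and nothing here matches them to light and heavy.

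The heavy minus light difference of -0.152 points kept its side of the threshold in 2 of 5 other settings, with minimums of 5 and of 20 reads. It was -0.057 points (p = 0.394) when each cytosine counted alike, and -0.143 (p = 0.115) without the 7 mice whose maternal DMR level passed 25%. It averaged -0.0405 in cadmium mice and -0.263 in vehicle mice, a contrast that was not tested.

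The excess over the control did not differ detectably between the groups. On the light strand it was 0.264 ± 0.287 points in cadmium mice and 0.394 ± 0.363 points in vehicle mice, a difference of -0.130 (interval -0.375 to 0.116, permutation p = 0.284). On the heavy strand it was 0.223 ± 0.203 points in cadmium mice and 0.131 ± 0.233 points in vehicle mice, a difference of 0.0927 (interval -0.0706 to 0.256, permutation p = 0.255). No relation of the control level with either strand was detected across mice: r was 0.026 with the light strand and 0.0709 with the heavy strand, with adjusted permutation p of 0.999 for both.

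**Figure D2:**
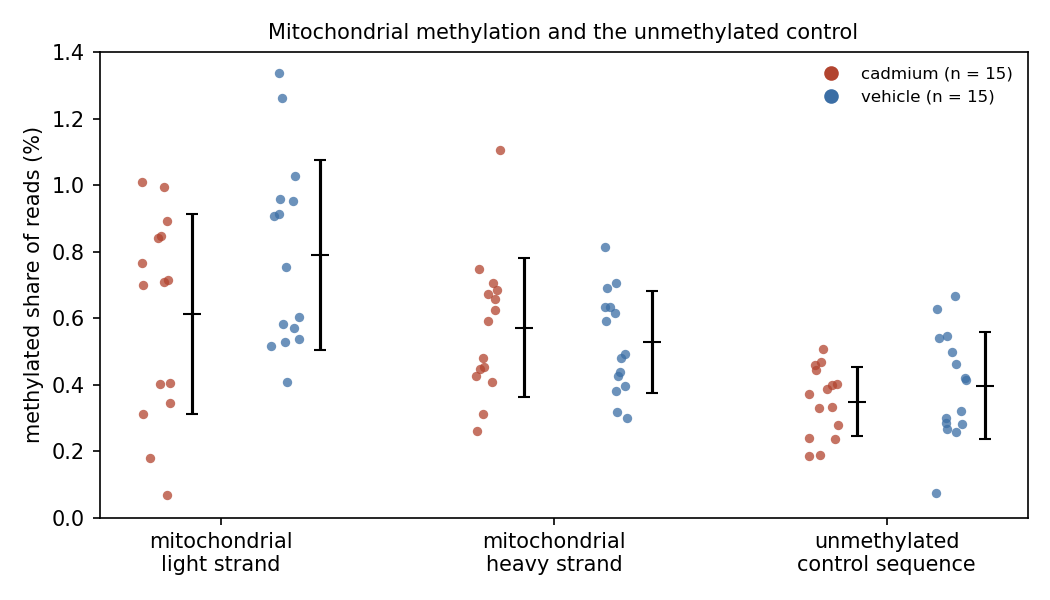
Methylated share of reads (%) on the mitochondrial light strand, on the heavy strand and on the unmethylated control sequence, with a point per mouse for cadmium and vehicle mice and the mean and SD beside each group. Both strands lie above the control on average, and cadmium and vehicle mice overlap in all 3 measures.

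The excess over the control lay at 5 of the 19 cytosines. These are position 3333 on the light and 3402 on the heavy strand of mt-Nd1, and 6275 on the light and 6276 and 6390 on the heavy strand of mt-Co1. They were singled out after their values were seen, so the statements on them are descriptions with no test. Summed, they read 1.09% ± 0.247 methylated in cadmium mice and 1.12% ± 0.290 in vehicle mice (SD, n = 15 each). They held 47.0% of the mitochondrial reads and 85.1% of the methylated ones, 6577 of 7726. Their summed level was above the control in 30 of 30 mice. Of the 8 cytosines with few reads, 2521 and 3334 also averaged above the mean control level of 0.373%, at 1.09% and 0.669%. Methylated reads there came from 4 and 5 of 30 mice. By pooled level, 1871 (0.595%) and 2489 (0.715%) lay above it as well.

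All other mitochondrial cytosines together read 0.140% ± 0.104 in cadmium mice and 0.185% ± 0.0894 in vehicle mice, and were above the control in 4 of 30 mice. Without the 5 cytosines, the light strand lay 0.202 points below the control (difference -0.202) and the heavy strand 0.216 points below it (difference -0.216). Leaving out cytosines chosen for high values lowers the mitochondrial levels by construction. The control meanwhile kept its own highest cytosine, position 83, at 1.27%, and averaged 0.312% ± 0.118 without it. The strand differences between groups also changed sign: the light strand then differed by 0.050 points and the heavy strand by -0.0955 points, cadmium minus vehicle.

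The 5 cytosines varied among mice more than their sum did. At 6275 on the light strand the lowest, median and highest levels were 0%, 0.960% and 1.98% in cadmium mice, against 0.581%, 1.56% and 3.51% in vehicle mice. At 3333 on the light strand they were 0%, 0.999% and 2.21% in cadmium mice, against 0.0421%, 1.10% and 2.48% in vehicle mice. Vehicle mice lay higher on both light strand sites on average, and the groups overlapped at each. At 6276 on the heavy strand the values were 0.0985%, 0.733% and 3.26% in cadmium mice, against 0%, 0.608% and 1.34% in vehicle mice. At 6390 on the heavy strand they were 0.264%, 1.22% and 1.98% in cadmium mice, against 0.0820%, 1.09% and 1.99% in vehicle mice. At 3402 on the heavy strand they were 0.0530%, 1.13% and 2.10% in cadmium mice, against 0%, 1.11% and 1.79% in vehicle mice. Averages at these heavy strand sites were higher in cadmium mice, and the groups overlapped at each.

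Of the 5 cytosines, 4 shared a position. The 19 were grouped into runs of neighbours on 1 strand that lay within 100 bp of each other and whose depth agreed within 5%, which gave 9 runs, 6 of them with more than 1 cytosine. Of the 5, 4 were the 5′-most cytosine of a run of neighbours on their own strand, and 6390 stood alone in its run, so that it has no later neighbour to be set against. Among the 11 deep cytosines, the 4 that came first in a run and 6390 averaged 0.837% to 1.33%, and the 6 that came later averaged 0.0722% to 0.208%. The runs, too, were defined after these values were seen.

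In mt-Nd1 on the light strand, 3333 averaged 1.17% ± 0.666 and 3344, 11 bp further along, 0.137% ± 0.182 (SD, n = 30), and the first was higher in 29 of 30 mice. In mt-Co1 on the light strand, 6275 averaged 1.33% ± 0.758 and 6311 averaged 0.208% ± 0.286, with the first higher in 28 of 30 mice. In mt-Nd1 on the heavy strand, 3402 averaged 1.08% ± 0.603 and the later pair, 3396 and 3387, 0.104% ± 0.123, with the first higher in 27 of 30 mice. In mt-Co1 on the heavy strand, 6276 averaged 0.837% ± 0.676 and the later pair, 6264 and 6232, 0.173% ± 0.204, with the first higher in 26 of 30 mice.

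Both cadmium and vehicle mice showed the contrast. Summed over the 9 runs, the first or lone cytosines were higher than the later ones in each of the 30 mice. The shallow runs of mt-Rnr2 carried few methylated reads: 1871 exceeded 1912 on the light strand in 5 of 30 mice and equalled it in 25, and 2521 exceeded its 3 later neighbours on the heavy strand in 4 of 30 mice and equalled them in 25.

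In pooled levels, the unmethylated control showed a contrast in the same direction. By the same rule its 32 cytosines formed 24 runs, 4 of them with more than 1 cytosine, all on the + strand, and in 4 of these 4 the first cytosine had the higher pooled level. The widest contrast was at positions 83 and 87, read to like depth (40904 and 40842 reads). Position 83, the highest of the control cytosines, averaged 1.27% ± 0.998 and position 87 averaged 0.216% ± 0.379 (SD, n = 30), with the first higher in 22 of 30 libraries. The level at position 83 is near that of the 5 mitochondrial cytosines. In the other 3 runs, starting at positions 2, 10 and 66, the pooled levels were 0.300%, 0.389% and 0.459% at the first cytosine, against 0.130%, 0.323% and 0.131% at the later ones. By library, however, the first cytosine was higher in only 9, 9 and 5 of 30, and equal in 19, 2 and 22. Position 16, a later cytosine of the run from position 10, had a pooled level of 0.461%, above that of the first. On the - strand, the 5′-most control cytosine, position 88, had the highest pooled level, 0.568%, from 22 methylated reads of 3875. It had no later cytosine in its run. By the mean over libraries it read 0.419%, below position 84 at 0.558% and position 67 at 0.485%. Without position 83 the control averaged 0.312% ± 0.118.

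The 2 strands of 1 CpG did not always behave alike in depth. Positions 6275 and 6276 are the light and heavy cytosine of a CpG in mt-Co1 and had 106329 and 125555 reads. Positions 3333 and 3334 form a CpG in mt-Nd1, where the light cytosine had 114281 reads and the heavy one 3555. The heavy cytosine 3334 had methylated reads in 5 of 30 mice.

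**Figure D3:**
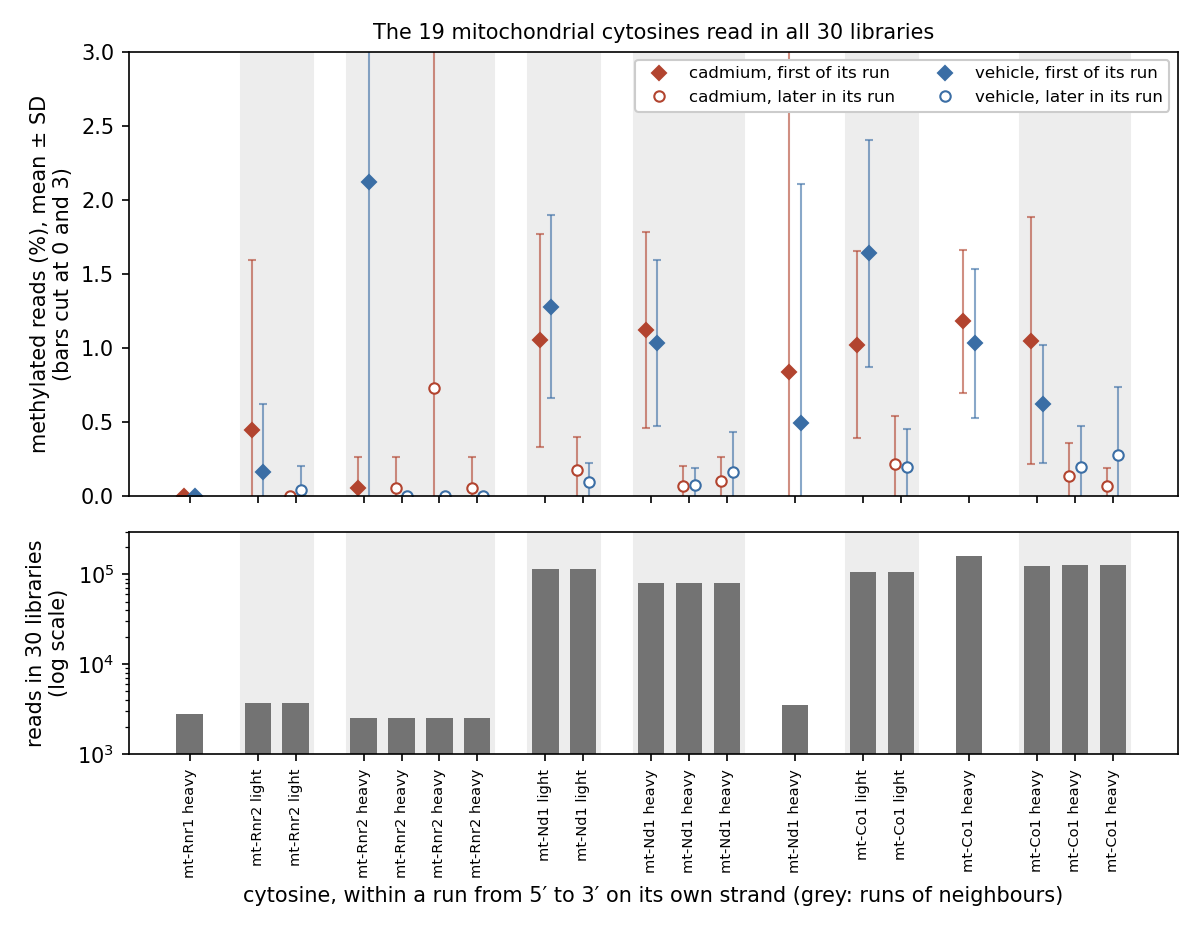
Top, mean methylated share of reads (%) with SD at each of the 19 cytosines read in all libraries, for cadmium and vehicle mice (n = 15 each); diamonds mark the first or lone cytosine of a run of neighbours, from 5′ to 3′ on its strand, and circles the later ones, with grey bands for runs of more than 1. Bottom, reads per cytosine over the 30 libraries on a log scale; the 5 deep first or lone cytosines stand near 1% and the 6 deep later ones near 0.1% to 0.2%.

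**Figure D4:**
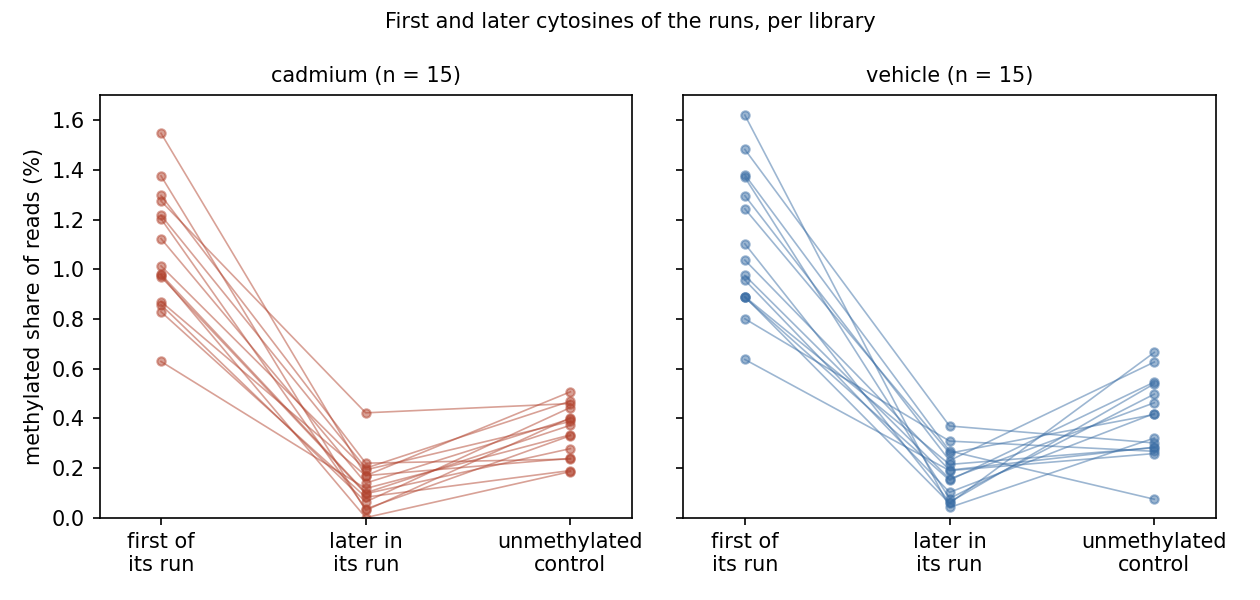
Methylated share of reads (%) in each library, summed over the first or lone cytosines of the 9 runs, over the later ones and over the unmethylated control, with a line per mouse, cadmium on the left and vehicle on the right (n = 15 each). In 30 of 30 mice the first or lone cytosines lie above the later ones.

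A few mice accounted for the outlying values at the shallow cytosines. At 2521 on the heavy strand of mt-Rnr2, vehicle mice averaged 2.12% ± 5.49, from 3 methylated reads of 18 in vehicle mouse 1, 9 of 62 in vehicle mouse 6 and 1 of 156 in vehicle mouse 13, while cadmium mice averaged 0.0546% ± 0.212. At 2489 on the same strand, cadmium mouse 7 had 17 methylated reads of 167, against 0 in every vehicle mouse. At 3334 on the heavy strand of mt-Nd1, cadmium mouse 4 had 5 methylated reads of 51 and vehicle mouse 10 had 5 of 80. At 135 on the heavy strand of mt-Rnr1, 0 of 2778 reads were methylated, which allows a level of up to 0.108%.

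No single mitochondrial cytosine differed between the groups past the threshold. Methylated and unmethylated reads were compared with a quasi-logistic fit over all cytosines that reached 10 reads in at least 10 cadmium and 10 vehicle mice, and a call needed a Benjamini-Hochberg adjusted p under 0.05. An upper limit that drops the most covered 0.1% of cytosines of each mouse leaves out the 11 deep mitochondrial ones, so 8 were tested among 1357197 cytosines. Of these 1357197, 7 were called (0.000516%), and 0 of the 8. Without the upper limit all 19 were tested among 1358964 cytosines, of which 7 were called (0.000515%), and again 0 of the 19. In either fit 1 mitochondrial cytosine had an unadjusted p under 0.05, beside 133439 of the 1357197 cytosines and 133482 of the 1358964. limma on the percentages called 0, with 0 of the 8 and 1 of the 19 under an unadjusted 0.05. Of all cytosines, 18967 with the upper limit and 19002 without it were under 0.05 by limma.

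The smallest p belonged to 2489, where cadmium mice averaged 0.786% and vehicle mice 0% over the 29 mice with enough reads (p = 0.0361, adjusted p = 0.477 over all cytosines in the quasi-logistic fit). Next came 6275, where cadmium mice averaged 1.02% and vehicle mice 1.64% (p = 0.0568, adjusted p = 0.522). At 6232 on the heavy strand of mt-Co1 the levels were 0.0730% in cadmium mice and 0.282% in vehicle mice (p = 0.117, adjusted p = 0.624). At the 11 deep cytosines the dispersion was 5.22 to 14.6, where counting error alone gives 1.

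Summed over genes, 4 mitochondrial genes could be tested among 28781 genes, of which 0 were called (0%) by the quasi-logistic fit and 1326 had an unadjusted p under 0.05. Of the 4, none had one by this fit or by limma. mt-Co1 averaged 0.646% ± 0.223 in cadmium mice, against 0.680% ± 0.194 in vehicle mice, and mt-Nd1 0.523% ± 0.186 in cadmium mice and 0.552% ± 0.210 in vehicle mice (SD, n = 15 each; adjusted p = 1 for each). mt-Rnr2 averaged 0.227% ± 0.417 in cadmium mice, against 0.289% ± 0.630 in vehicle mice, and mt-Rnr1 had 0 methylated reads of 3049.

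The split of reads over the genes was close in both groups. Of a library's mitochondrial reads, mt-Co1 held 59.3% ± 4.07 in cadmium mice, against 61.1% ± 2.93 in vehicle mice. mt-Nd1 held 38.8% ± 4.14 in cadmium mice and 37.3% ± 3.09 in vehicle mice. No test was made of these shares.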

How the data were processed

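Per the labels, genomic DNA from cauda epididymal sperm of 30 mice was sequenced as RRBS libraries. The deposited tables, made by the authors, give for each cytosine and strand the methylated fraction and the count of covering reads. Per the submitters' processing notes, the tools were Bismark 0.22.3, Trim Galore 0.5.0, methylKit 1.12.0 and bcl2fastq, and the genome builds GRCm38 and mm10, with no roles stated. No minimum count had been applied by the authors. Methylated reads were taken as fraction times count, which was whole within 0.01 for the mitochondrial and control rows.

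Strand levels are methylated over all reads of a library. Groups were compared with permutation tests in Python 3.11.15 (100000 resamples), strands and control with sign-flip permutation tests within libraries, and cytosines and genes with a quasi-logistic fit across the whole table, with the dispersion never below 1 and limma 3.58.1 as an alternative. Genes came from a RefSeq table for GRCm38.p6. Cytosines were named by rule: per strand the 5 most covered, the 5 most methylated, and the 5 higher and 5 lower in cadmium mice with the smallest p. Members, lists and tests were chosen with earlier results of these data known. The tests were checked on simulated data, and no outcome of that check is given here. The behaviour of the fits at levels as low as the mitochondrial ones was not tested. Sequences were not used here. Replicate numbers of the groups were not treated as pairs: 6 of 15 same-numbered pairs deviated together at r over 0.1. Over the 15 pairs r ran from -0.255 to 0.676, with a mean of 0.107. Other coverage minimums, unweighted means, the replicate block and leaving out mice with high maternal DMR levels were tried as alternatives.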

Additional observations from a re-analysis of the deposited data

How the results depend on the processing

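Results on the strands, the excess over the control and the share of coverage kept their direction and side of the threshold under all alternatives except the following. The heavy minus light difference (-0.152 points) was -0.057 (p = 0.394) when each cytosine counted alike, -0.143 (p = 0.115) without the 7 mice over 25% at maternal DMRs, and -0.148 (p = 0.0596) without the 2 over 25% at the windows averaging under 30%. Leaving out the 5 cytosines near 1%, chosen after seeing the data, gave group differences of 0.050 (light) and -0.0955 (heavy) points, and 0.0986 and -0.0470 points of excess; against the control within libraries it gave -0.202 (light) and -0.216 (heavy), and -0.0143 for heavy minus light, by construction. With no dispersion term, 2 mitochondrial cytosines of the 8, 6 of the 19 and 1 gene of the 4 were called, beside 39.7% of all cytosines with or without the upper limit and 67.9% of all genes; 2489 and 2521 (differences 0.786 and -2.06 points) were the 2. Light against control ranged from 0.204 to 0.330 points and heavy from 0.147 to 0.295, the highest with control rows of the same strand only. The replicate block left the light difference at -0.178 (adjusted p = 0.333), the heavy one at 0.0442 (adjusted p = 0.628) and the share at 0.000178 (p = 0.984). Of 15 mice, 2 correlated best with their own number, so numbers do not show pairing in general, though r reached 0.676 in 1 pair. Leaving out single replicates was not run, since groups hold 15 mice. Depth limits the shallow cytosines most, where single mice had as few as 7 reads.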
